A study of Drosophila melanogaster with 2 samples.

Results

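The small chromosome 4 of Drosophila melanogaster carried 258 of the 30000 chromatin immunoprecipitation sequencing (ChIP-seq) peaks listed for replicate 2 of the CG33017 experiment (0.860%, exact 95% interval 0.759 to 0.971%). These 258 peaks were chosen by position alone, as every peak of that list on chromosome 4, and were matched by at least 1 bp to the lists of replicate 1, of the pooled replicates and of the irreproducible discovery rate (IDR) selection. Replicate 1 had 170 peaks on the chromosome among 30000 (0.567%, 0.485 to 0.658%), the pooled list had 198 among 30000 (0.660%), and the IDR list had 15 (0.308% of its peaks, 0.173 to 0.508%).

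Both samples were chromatin of whole adult males of 1 transgenic line in which CG33017 carries GFP at its C-terminus, and an anti-GFP antibody was used for the precipitation. The age of the flies is given as unknown, both samples name the same line, and the labels number them as biological replicates 1 and 2 of 1 group. The promoter that drives the tagged copy, its insertion site and the state of the endogenous gene are not stated in the labels. There was no second condition. Flies without the tag and reads behind the lists were not analysed here, so the depth of each library is unknown. Whole flies hold many cell types, so binding in a small share of cells and weak binding in all of them cannot be told apart.

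Chromosome 4, also called the dot chromosome or Muller F element, is unusual among fly autosomes. Much of it is packaged with heterochromatin marks such as methylated histone H3 lysine 9 and with the protein HP1a, and its gene-rich arm is interspersed with transposable elements. Its genes are nevertheless expressed, and the chromosome-specific protein POF binds many of them.

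The DNA under the strongest chromosome 4 sites is shown for the 5 IDR peaks of highest pooled signal whose summit did not lie in a 3' UTR, within 60 bp of the summit and ended at the first base of an annotated untranslated region. The letters are on the plus strand of dm6, from the RefSeq genome sequence. Capitals mark matches on either strand to 7 short motifs: the DRE (TATCGATA), the BEAF-32 motif (CGATA, which is contained in the DRE), the GAGA repeat (GAGAGA), the E-box (CACGTG), the TATA box (TATAAA), the CA repeat (CACACA) and the A tract (AAAAAAAA). BEAF-32 is an insulator protein, and CGATA is only a part of its site.
RpS3A, just upstream of the TSS, chr4:67208-67279: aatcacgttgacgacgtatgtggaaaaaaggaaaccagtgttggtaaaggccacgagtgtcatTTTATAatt
ATPsynbeta, summit in coding sequence, chr4:1031890-1032010: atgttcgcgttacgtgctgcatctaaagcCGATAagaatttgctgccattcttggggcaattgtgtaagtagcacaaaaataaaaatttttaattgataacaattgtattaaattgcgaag
PlexA, upstream of the TSS, chr4:1027256-1027376: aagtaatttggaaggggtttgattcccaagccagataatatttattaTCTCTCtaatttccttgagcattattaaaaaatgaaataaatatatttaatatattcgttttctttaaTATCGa
eIF4G1, intron far from any TSS, chr4:922763-922883: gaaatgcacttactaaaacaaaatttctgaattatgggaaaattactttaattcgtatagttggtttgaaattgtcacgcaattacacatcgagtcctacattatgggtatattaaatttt
apolpp, intron shared with Zyx, chr4:1064441-1064561: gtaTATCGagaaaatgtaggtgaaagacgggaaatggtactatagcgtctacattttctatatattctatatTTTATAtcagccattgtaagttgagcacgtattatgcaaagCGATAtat
The windows at ATPsynbeta, PlexA and apolpp each held the BEAF-32 motif, those at RpS3A and apolpp the TATA box, and the one at eIF4G1 none of the 7. Their GC content lay between 24.0 and 38.9%. Of all replicate 2 summits, 15.1% had CGATA within 50 bp, a shorter reach than the 60 bp shown here. Of the CGATA matches shown, only that at ATPsynbeta lies within 50 bp of its summit.

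Chromosome 4 held few of the strongest CG33017 peaks in both replicates, and its share was highest among the weakest peaks in replicate 2 alone. In replicate 2 it gave 2 of the 1000 peaks of highest signal (0.200%), 13 of the next 4000 (0.325%), 88 of the next 10000 (0.880%) and 155 of the 15000 of lowest signal (1.03%). In replicate 1 it gave 0 of the first 1000, which allows up to 3 of 1000, then 0.425, 0.670 and 0.573%. The best rank on the chromosome was 904 in replicate 2, 1360 in replicate 1 and 1102 in the pooled list. For scale, chromosome 4 makes up 1.01% of the assembled bases and 0.738% of protein-coding transcription start sites (TSSs).

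**Figure D1:**
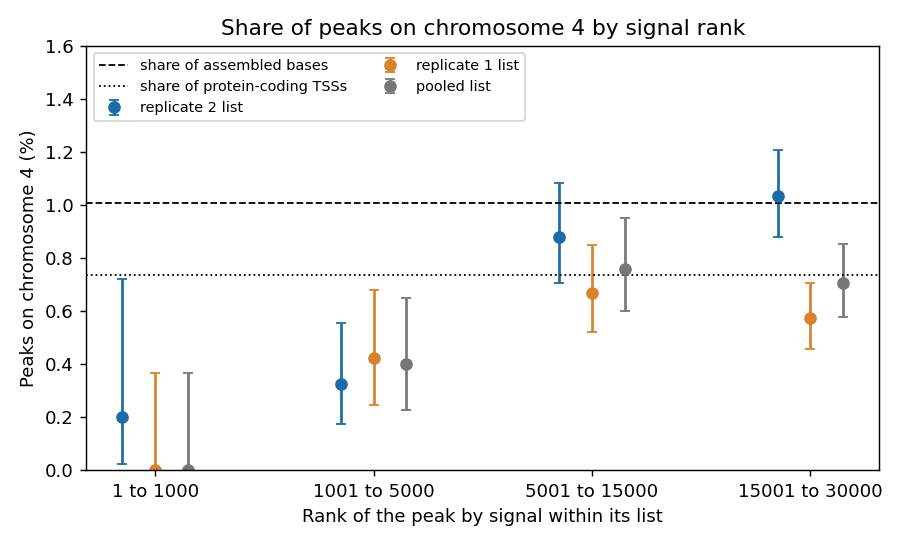
Share of peaks on chromosome 4 (percent, with exact 95% intervals) against signal rank, for replicate 2, replicate 1 and the pooled list. The dashed and dotted lines mark its 1.01% share of bases and 0.738% share of protein-coding TSSs, and every share among the first 5000 ranks lies below both.

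Per base, chromosome 4 held fewer peaks than the large autosomal arms, and the size of the gap depended on the replicate. There were 191.4 peaks per Mb on chromosome 4 against 275.9 on the autosomal arms in replicate 2, a ratio of 0.694. In replicate 1 there were 126.1 against 268.3, a ratio of 0.470, and in the IDR list 11.1 against 45.7, a ratio of 0.243. Per protein-coding TSS the ratio to the autosomal arms was 1.11 in replicate 2, 0.753 in replicate 1 and 0.390 in the IDR list, so that its direction differs between replicates. Relative to X, the density per Mb was 1.05 times as high in replicate 2 and 0.580 times as high in replicate 1, so this direction differs too. The autosomal arms here are 2L, 2R, 3L and 3R without their pericentromeric ends. Those ends, which are also heterochromatic, held 12.9 peaks per Mb in replicate 2 and 14.8 in replicate 1. With 2 replicates the smallest two-sided exact permutation p is 0.5, so comparisons between chromosome 4 and the rest are given as values of both replicates, with intervals that cover the counting of peaks only.

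Signals of the 258 members were low within the list. They ran from 15.3 to 150.6 with a median of 21.96 and quartiles of 17.9 and 29.8, in the authors' own signal units, which have no stated scale and are compared here only within a list. The median member stood at the percentile 41.3 of the replicate 2 list, against 50.3 for the autosomal arms and 33.9 for the pericentromeric ends. In replicate 1 the median chromosome 4 peak stood at 49.7, against 50.7 for the autosomal arms. All 258 members were 384 bp wide with the summit at the midpoint, and 30 neighbouring pairs overlapped, so that members share sequence.

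A smaller share of the members than of the whole list recurred in the other replicate. Of the 258 members, 103 overlapped a replicate 1 peak (39.9%, 33.9 to 46.2%), against 65.2% of all replicate 2 peaks and 64.5% on the autosomal arms. The pooled list overlapped 164 (63.6%), against 80.2% of all replicate 2 peaks, and the IDR list 20 (7.75%), against 19.8%. The pooled and IDR lists were made from the same replicates and are not independent of the match. In all, 19 members were matched in every other list and 91 (35.3%) in none. In the other direction the difference was smaller: 115 of the 170 chromosome 4 peaks of replicate 1 (67.6%) overlapped a replicate 2 peak, against 69.9% on the autosomal arms. Replicate 2 peaks covered 7.04% of the bases of chromosome 4 and replicate 1 peaks 4.44%, against 9.93 and 9.27% of the autosomal arms.

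The strongest members recurred most often, and the rest at much the same lower share. Of the 64 members of highest signal, 48 overlapped a replicate 1 peak, and of the next 65, 64 and 65 members 19, 20 and 16 did, in order of falling signal (29.2%, 31.3% and 24.6%). All 20 members matched in the IDR list were among the 64 strongest. Compared at equal ranks, 14 of 15 members of rank 1 to 5000 (93.3%, 68.1 to 99.8%) overlapped a replicate 1 peak, against 99.1% on the autosomal arms. Below that the gap was wider: 45 of 88 of rank 5001 to 15000 (51.1%, 40.2 to 61.9%) against 82.0%, and 44 of 155 of rank 15001 to 30000 (28.4%) against 40.9%. Across the 103 matched pairs, Spearman's rho of the signal between replicates was 0.495, against 0.638 over 16429 pairs on the autosomal arms and 0.485 over 125 pairs on the pericentromeric ends. On those ends 53.2% of replicate 2 peaks overlapped a replicate 1 peak. These values describe peaks of the same 2 libraries.

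**Figure D2:**
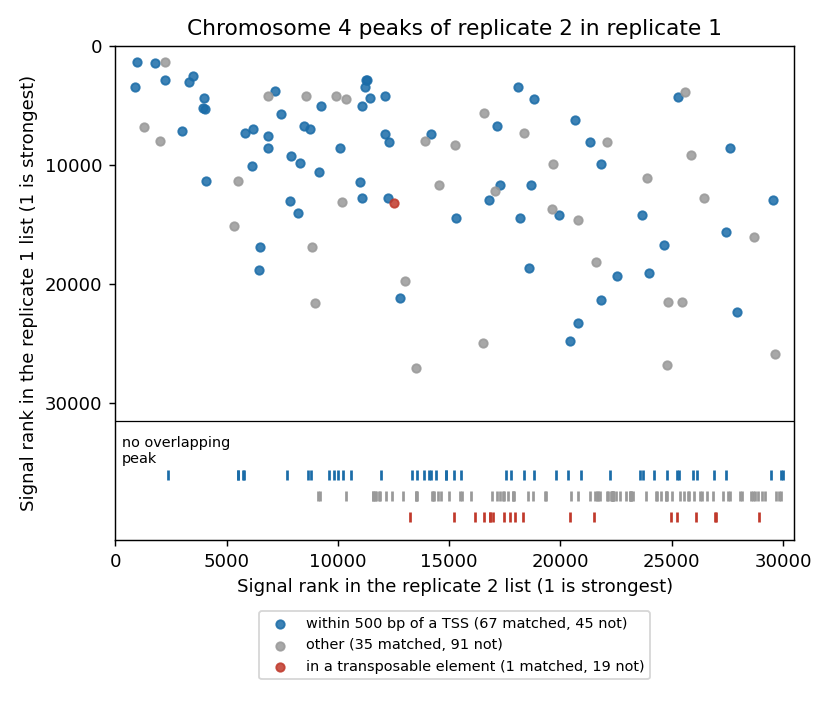
Signal rank of each of the 258 chromosome 4 members in replicate 2 (x) and in replicate 1 (y), rank 1 at the top; ticks under the line are members with no overlapping replicate 1 peak. Colour gives the place of the summit. Of the 112 members within 500 bp of a TSS 67 were matched, of the 20 in a transposable element 1 was.

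Summits of chromosome 4 lay near gene starts more often than its bases do. A summit within 500 bp of any annotated TSS was called promoter-proximal. This held for 112 of 258 members (43.4%, 37.3 to 49.7%) in replicate 2 and 92 of 170 (54.1%, 46.3 to 61.8%) in replicate 1, against 36.6% of all replicate 2 peaks, and 36.1% in replicate 2 and 40.5% in replicate 1 on the autosomal arms. The window covers 10.7% of the bases of chromosome 4 and 16.0% of those of the autosomal arms. On the pericentromeric ends the share was 47.2% in replicate 2 and 58.7% in replicate 1. Of the 15 IDR peaks on chromosome 4, 11 were promoter-proximal (73.3%, 44.9 to 92.2%), against 61.0% of all IDR peaks and 62.3% of those on the autosomal arms, both within that interval. Promoter members had a median signal of 26.7, and members inside a gene but away from a TSS 19.4.

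Promoter members recurred more often than others, and both less often than on the large arms. Of the 112 promoter members 67 overlapped a replicate 1 peak (59.8%), against 82.9% of promoter peaks on the autosomal arms, and of the 146 others 36 (24.7%), against 54.1%. Fewer promoter summits lay upstream of the TSS on chromosome 4 than on the autosomal arms. In replicate 2, 53 of the 112 promoter summits (47.3%) were upstream of the nearest TSS, against 61.6% on the autosomal arms, and in replicate 1 43.5% against 59.7%. The pericentromeric ends also had low shares upstream, with 51.4% in replicate 2 and 38.6% in replicate 1. The median offset was +11 bp in replicate 2 and +29 bp in replicate 1, against -40 and -37 bp on the autosomal arms and -2 and +43 bp on the pericentromeric ends, where negative is upstream.

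By annotation, 5' UTR summits were above and coding and intronic summits below their share of bases. The 5' UTR held 18.6% of members and 24.1% of the replicate 1 peaks on chromosome 4, where 3.50% of the bases are 5' UTR. On the autosomal arms, with 3.83% of the bases, it held 10.4% in replicate 2 and 12.4% in replicate 1, so summits there were also above the share of bases. The pericentromeric ends had 16.2% in replicate 2 and 24.2% in replicate 1. Coding sequence, with 19.5% of the bases, held 12.8% and 8.82%. Introns, with 46.1% of the bases, held 36.4% and 36.5%, and intergenic sequence, with 21.1%, held 24.8% and 22.9%. On the autosomal arms the coding share was 9.47% in replicate 2 and 5.73% in replicate 1, with 19.5% of the bases. The intron share there was 48.0% and 49.8%, above the 41.6% of the bases. On the pericentromeric ends introns held 33.6% and 32.3%, with 40.7% of the bases. Coding sequence held 10.6% and 12.3% there, with 2.00% of the bases.

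Transposable elements made up 24.8% of the bases of chromosome 4, but 20 of 258 summits lay in one (7.75%, 4.80 to 11.7%), as did 12 of 170 in replicate 1 (7.06%) and 0 of 15 in the IDR list, which allows up to 3 of 15. Over all replicate 2 peaks the share was 0.357%, and on the autosomal arms it was 0.220% in replicate 2 and 0.291% in replicate 1, where elements make up 3.87% of the bases. Pericentromeric ends had 7.23% of summits in elements in replicate 2 and 5.20% in replicate 1, where elements make up 12.7% of the bases. Of the 20 member summits, 14 lay in INE-1, a short, ancient and abundant element of the fly genome that covers 7.22% of chromosome 4, and the others lay in 1360, I, HB, S, mariner2 and gypsy2 with 1 each. The strongest of the 20, beside Ank and in an INE-1 element, had a signal of 28.1. It alone of the 20 overlapped a replicate 1 peak (interval 0.127 to 24.9%), against 102 of the 238 others (42.9%). None of the 20 was promoter-proximal. Of the 126 members outside elements that were not promoter-proximal either, 35 (27.8%) overlapped a replicate 1 peak. Reads from repeated copies can be hard to place, and no source used here says how they were treated; the part of this in the values was not tested.

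**Figure D3:**
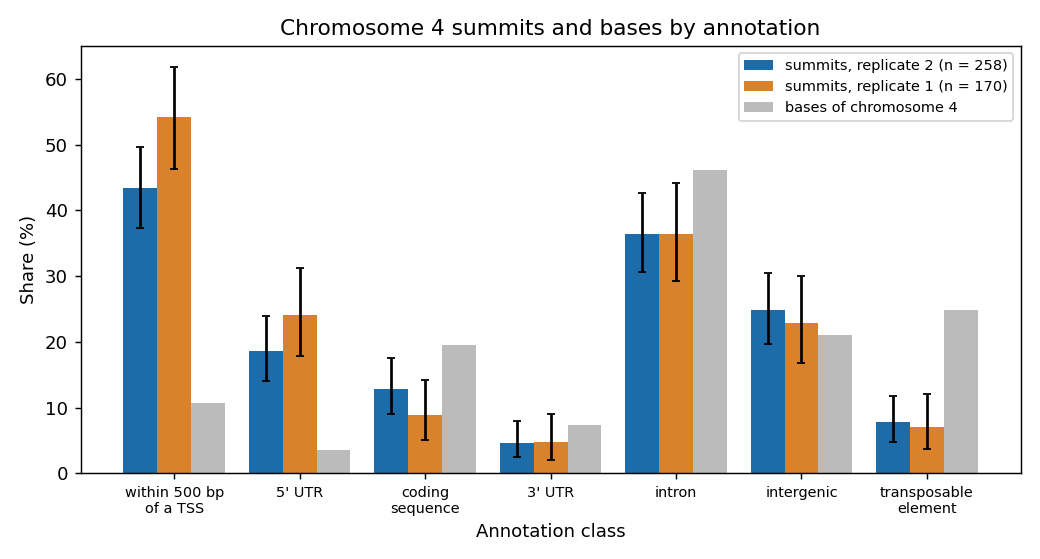
Shares (percent, exact 95% intervals) of chromosome 4 summits in each annotation class in replicate 2 (258 peaks) and replicate 1 (170 peaks), beside the share of the chromosome's bases in grey. The promoter class and 5' UTR stand above their bases in both replicates, and transposable elements and introns below.

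GC content was slightly higher at chromosome 4 summits than beside them, while it was lower at summits of the autosomal arms. Within 50 bp of the summit it averaged 35.6% in replicate 2 and 34.8% in replicate 1, and in flanks 350 to 450 bp away 33.9% and 33.5%, differences of +1.70 and +1.28 percentage points (SD over peaks 8.83 and 8.32). On the autosomal arms the differences were -1.50 and -2.50 points (SD over peaks 12.94 and 13.04), and on the pericentromeric ends +0.619 and +0.703 points. Among IDR peaks the difference was +5.08 points on chromosome 4, over 15 peaks, and -7.03 points on the autosomal arms. The mean over the chromosome was 35.2%, against 42.6% on the autosomal arms, so that chromosome 4 summits are near its own mean. Removing the promoter summits left +2.00 points in replicate 2, and removing those in transposable elements left +1.64. In replicate 1 the GC of windows along the flanks varied by as much as, or more than, the summit differed from them.

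**Figure D4:**
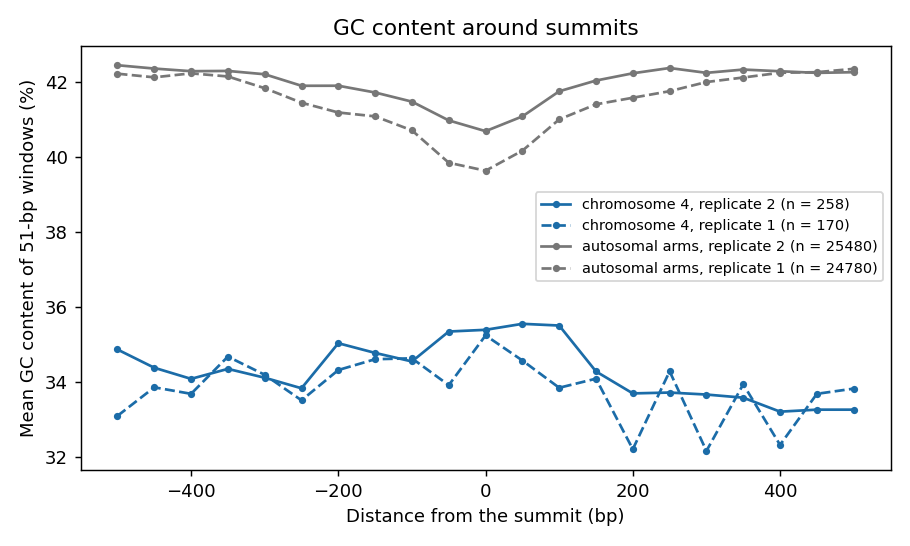
Mean GC content (percent) of 51-bp windows against distance from the summit in bp, for chromosome 4 (258 and 170 peaks) and for the autosomal arms, in replicate 2 (solid) and replicate 1 (dashed). The autosomal arms show a minimum at the summit, and the chromosome 4 lines are higher near the summit than in most windows farther out, with larger variation.

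The 7 motifs were searched within 50 bp of the summits. The BEAF-32 motif was found in 50 of 258 member windows (19.4%, 14.7 to 24.7%), in 15.1% of all replicate 2 windows and in 14.5% of the members' flanks. In replicate 1 it was found in 20.6% of chromosome 4 windows and in 15.9% of all. The DRE, a site of the replication-related element factor Dref, was in 5 members (1.94%), against 1.08% of all windows. The TATA box was in 20.5% of members, against 14.6% of all windows and 24.4% of the members' flanks, so that it was not more frequent at the summits than beside them. The A tract was in 2.71% of members (1.10 to 5.51%) against 6.09% of all windows in replicate 2, and in 5.88% against 6.60% in replicate 1. The GAGA repeat was in 4.26% of members against 4.99% of all windows, the CA repeat in 6.98% against 10.1%, and the E-box in 1.55% against 1.22%. In replicate 1 the E-box was in 0 of 170 chromosome 4 windows, against 1.26% of all, so its direction differed between replicates. In the members' flanks the CA repeat was in 7.36% of windows, the A tract in 5.62% and the GAGA repeat in 2.71%. The DRE was in 1.55% of these flanks and the E-box in 0.775%. All of these are matches of letters, and the shares were not tested.

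Most coding genes of chromosome 4 had a peak near a TSS. A protein-coding gene was counted when a summit lay within 500 bp of any of its TSSs. This held for 65 of the 80 coding genes (81.3%, 71.0 to 89.1%) in replicate 2 and 53 (66.3%, 54.8 to 76.4%) in replicate 1, against 59.2% of all coding genes in replicate 2, and 60.2% in replicate 2 and 61.3% in replicate 1 on the autosomal arms. In the IDR list 14 of 80 (17.5%) held one, against 25.6%. Genes of chromosome 4 have 1.78 annotated TSSs on average, against 1.38 on the autosomal arms, and counted at the 5' end of the gene alone the counts were 59 of 80 (73.8%) in replicate 2 and 48 of 80 in replicate 1, against 58.3% and 59.4% of genes on the autosomal arms. In both replicates 50 genes held a promoter peak (62.5%), against 53.4%, though the peaks of a gene in the 2 replicates need not overlap.

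The highest pooled signals on the chromosome were at RpS3A, with 269.6, ATPsynbeta, with 220.2, and PlexA, with 215.9, and the order differed in each replicate. ATPsynbeta, the beta subunit of mitochondrial ATP synthase, had the highest member of replicate 2 (chr4:1031744-1032127), with a signal of 150.6 and rank 904 in replicate 2, and of 71.9 and rank 3421 in replicate 1. Its summit lay 72 bp downstream of a TSS in coding sequence, and the same peak lay within 500 bp of a TSS of CG11076. RpS3A, a protein of the small ribosomal subunit, had the next member (chr4:67037-67420), with 144.1 and rank 974 in replicate 2, and 123.7 and rank 1360 in replicate 1. Its summit lay 22 bp upstream of the TSS. PlexA, a semaphorin receptor of axon guidance, had 103.3 and rank 1788 in replicate 2, and 120.5 and rank 1424 in replicate 1 (chr4:1027089-1027472). In replicate 2 a peak in Cals stood above PlexA, and in replicate 1 a peak in eIF4G1 did.

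Several strong sites lay away from a TSS. The gene of eIF4G1, a scaffold of translation initiation, held an IDR peak in an intron (chr4:922621-923024), 7892 bp from the nearest TSS, with 89.8 in replicate 2 and 122.3 in replicate 1. The gene of the calsyntenin Cals held an IDR peak in its 3' UTR (chr4:1113122-1113525), with 123.8 and rank 1288 in replicate 2, but 44.1 and rank 6846 in replicate 1. An IDR peak 737 bp upstream of myo, a ligand of the TGF-beta family, had 96.3 and rank 1993 in replicate 2, and 39.7 and rank 7957 in replicate 1. Of these 3, the ranks of the replicates were closest at eIF4G1.

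Other IDR peaks lay at promoters. At myo itself a 5' UTR peak had 74.9 and rank 2995 in replicate 2, and 42.6 and rank 7186 in replicate 1. The gene of apolpp, a lipid carrier of the hemolymph, had 90.0 in replicate 2 and 78.8 in replicate 1, in an intron shared with Zyx. The gene gw, which acts in microRNA silencing, had 68.1 in replicate 2 and 86.4 in replicate 1, and CaMKI, a calcium/calmodulin-dependent kinase, had 70.1 in replicate 2 and 77.4 in replicate 1. Tdg, a thymine DNA glycosylase, and Pur-alpha, a nucleic acid-binding protein, shared a peak with 62.8 in replicate 2 and 61.1 in replicate 1. At CG31998 the peak had 62.3 in replicate 2 and 53.1 in replicate 1.

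The gene ci, the transcription factor of Hedgehog signalling, had 30.3 and rank 11307 in replicate 2, but 79.1 and rank 2881 in replicate 1. The antisense gene asRNA:CR43957 has a TSS at the same peak, and the strands cannot be told apart in ChIP-seq. A second peak, 3552 bp upstream of ci in an exon of that antisense gene, had 43.8 in replicate 2 and 62.8 in replicate 1. At CG32017 the peak had 86.5 and rank 2371 in replicate 2 and a pooled signal of 124.1. It had no overlapping peak in replicate 1, where the other 14 IDR peaks on the chromosome had one.

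The coding genes were also grouped by known role into 5 lists, which were written with earlier results of these data known. Metabolism, translation and protein turnover genes had the highest median promoter signal in replicate 2, at 57.5. Over all chromosome 4 genes with a promoter peak the median was 34.1, and on the autosomal arms 47.4. In replicate 1 these medians were 49.3, 41.4 and 45.0. Of the 9 genes of this list, 8 (88.9%, 51.8 to 99.7%) held a promoter peak in replicate 2 and 9 (66.4 to 100%) in replicate 1. Over all chromosome 4 coding genes the shares were 81.3% and 66.3%. Rad23, a shuttle factor of the proteasome, had 46.8 in replicate 2 and 43.7 in replicate 1. Gyf, a translational repressor, had no promoter peak in replicate 2 and 49.3, rank 5913, in replicate 1.

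Signalling genes held a promoter peak at 12 of 14 (85.7%) in each replicate, against 81.3% and 66.3% of all chromosome 4 coding genes in replicates 2 and 1. Their median signal was 30.5 in replicate 2. PIP4K, a phosphoinositide kinase, had 48.8 in replicate 2 and 42.2 in replicate 1. The adaptor gene Crk had 39.995 in replicate 2 and 61.8 in replicate 1, at peaks that did not overlap. CaMKII, a calcium/calmodulin-dependent kinase, had 35.4 in replicate 2 and 31.1 in replicate 1. Eph, an ephrin receptor gene, had no promoter peak in replicate 2 and 12.5 in replicate 1. The gene RhoGAP102A had none in either replicate.

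Of the 16 genes of transcription factors and cofactors, 12 held a promoter peak in replicate 2 and 9 in replicate 1. Both are lower shares than the 81.3% and 66.3% of all chromosome 4 coding genes in replicates 2 and 1. Those overall shares lie within the list's exact intervals of 47.6 to 92.7% in replicate 2 and 29.9 to 80.2% in replicate 1. Hcf, a chromatin cofactor, had 50.7 in replicate 2 and none in replicate 1. The transcription factor gene NfI had 50.6 in replicate 2 and none in replicate 1. Sox102F, a Sox family gene, had 42.2 in replicate 2 and 67.3 in replicate 1. The TCF of Wnt signalling, pan, had 41.1 in replicate 2 and 50.5 in replicate 1. Mitf had 37.3 in replicate 2 and 44.7 in replicate 1. The Pax6 gene ey, which acts in eye development, had no promoter peak in replicate 2 and 18.2 in replicate 1. Its paralog toy, the forkhead gene fd102C and the Ski family gene fuss had none in either replicate.

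Of the 12 genes of synapse and membrane transport, 10 held a promoter peak in replicate 2 (83.3%) and 7 in replicate 1 (58.3%). Over all chromosome 4 coding genes the shares were 81.3% and 66.3%. The median promoter signal of the list was 27.3 in replicate 2. The synaptic vesicle priming gene unc-13 had 47.1 in replicate 2 and 32.6 in replicate 1. The gene anne had 33.5 in replicate 2 and 47.4 in replicate 1, at peaks that did not overlap. Cals had 32.8 in replicate 2 and 37.2 in replicate 1 at its promoter. PMCA, a plasma membrane calcium pump, had 28.8 in replicate 2 and 60.1 in replicate 1, at peaks that did not overlap. The PMCA peak of 28.8 overlapped a replicate 1 peak of 41.7. The glutamate receptor gene mGluR had 29.1 in replicate 2 and none in replicate 1. JYalpha, a sodium/potassium ATPase subunit, and Gat, a GABA transporter, had none in either replicate.

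Of the 4 muscle and cytoskeleton genes, 2 held a promoter peak in each replicate. Zyx, a focal adhesion protein, had 43.8 in replicate 2 and 37.4 in replicate 1. Ank, an ankyrin, had 39.5 in replicate 2 and 25.8 in replicate 1. The giant muscle protein gene bt, 52.1 kb long, had no promoter peak in any list, and 3 summits of replicate 2 and 0 of replicate 1 lay inside it. The kinesin gene Kif3C had no promoter peak either. The 100-kb window that holds the starts of bt and MED26 had 11 summits in replicate 2 and 1 in replicate 1, where the other windows with coding genes had between 9 and 30 in replicate 2 and between 6 and 21 in replicate 1. In the last stretch of the chromosome (chr4:1300001-1348131), 95.4% of bases are transposable elements, no coding gene starts and no list had a summit. The 25 coding genes in no list held a promoter peak at 21 in replicate 2 (84.0%) and 14 in replicate 1 (56.0%), against 81.3% and 66.3% of all chromosome 4 coding genes.

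Among matched members, the ranks differed most at 3 sites, all weak in replicate 2 and stronger in replicate 1. A peak in an intron of Mitf (chr4:1199370-1199753) had 17.0 and rank 25601 in replicate 2, and 65.6 and rank 3892 in replicate 1. A second Crk peak (chr4:210212-210595) had 17.1 and rank 25291 in replicate 2, and overlapped the same replicate 1 promoter peak of 61.8, rank 4279. A peak 217 bp upstream of a Cals TSS (chr4:1123382-1123765) had 16.2 and rank 27607 in replicate 2, and overlapped a replicate 1 peak of 37.2, rank 8593. That replicate 1 peak also overlapped the Cals promoter member of 32.8, rank 10097, whose summit lies closer to it, so this rank difference rests on a replicate 1 peak shared by both members. The members of highest signal with no match in replicate 1 were the peaks at CG32017, with 86.5, Hcf, with 50.7, and NfI, with 50.6, which has a TSS of lncRNA:CR44023 beside it.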

How the data were processed

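ChIP-seq of 2 samples gave the deposited peak lists on dm6. Per the text deposited with the samples, the authors called peaks on each replicate and on the pooled replicates against a control alignment, and the IDR list was derived from these. Signal values and −log10 q-values are the authors' own, in the deposited peak format; the q-values sat at a ceiling for the strongest peaks and were not used for ranking. No source used here names the aligner or the peak caller. Read depth is unknown, and each of the 3 longer lists holds 30000 peaks.

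The members and the gene lists were chosen with earlier results of these data known. Summits were placed on Ensembl release 115 (BDGP6) and the matching RefSeq sequence with its transposable element annotation, in Python 3.11.15 with numpy 2.4.6, pandas 2.3.3 and scipy 1.17.1. A gene was counted where a summit lay within 500 bp of a TSS. Pericentromeric ends are 2L beyond 22 Mb, 2R before 6 Mb, 3L beyond 23 Mb, 3R before 4 Mb and X beyond 22 Mb. Of 56 gene symbols written in the lists, 55 were found on chromosome 4. The symbol Thd1, of the metabolism, translation and protein turnover list, had no match. The annotation has Tdg on chromosome 4, which is in no list. Named genes were the nearest genes of the IDR peaks and of the 15 highest members, up to 5 of each list with the highest signal and list members with none, the 3 largest rank differences and the 3 highest unmatched members; CG11076 and MED26 were named after their values were seen. Intervals are exact 95% Clopper-Pearson intervals. Steps were tested on simulated data: 20000 uniform summits gave class shares within 0.420 percentage points of the base shares, and 300 of 300 planted overlaps were found. Alternatives changed the list, its length, the match, the TSS window and the masking.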

Additional observations from a re-analysis of the deposited data

How the results depend on the processing

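The share of peaks on chromosome 4, 0.860% in replicate 2, was 0.567% without replicate 2, that is in replicate 1, 0.660% in the pooled list, 0.687% in the 15000 highest-signal peaks of replicate 2, and 0.308% both in its top peaks cut to the length of the IDR list and in the IDR list. The density relative to all of arms 2L, 2R, 3L and 3R, 0.812, was 0.550 in replicate 1, 0.285 in the list cut to the IDR length, 0.287 in the IDR list and 1.12 per protein-coding TSS. With summits at most 150 bp apart the match was 31.0% in replicate 1 and 56.6% in the pooled list, and 67.6% counted from replicate 1. The promoter-proximal share of 43.4% was 54.1% in replicate 1, 53.0% in the pooled list, 80.0% in the list cut to the IDR length, 62.1% in the top 15000, 33.7% at 250 bp and 53.1% at 1000 bp. The genes with a promoter peak numbered 65, with 53 in replicate 1, 50 in the top 15000 and 12 in the list cut to the IDR length. The median percentile was 49.7 in replicate 1, where GC at summits was 34.8% and the coding share 8.82%. The intron share was 29.8% in the pooled list, the share of mostly soft-masked members, 5.43%, became 62.4% when any soft-masked base within 50 bp of the summit counted, and rho, 0.495, was 0.498 with summits at most 150 bp apart and 0.508 without mostly soft-masked peaks. GC at summits minus flanks was 1.28 in replicate 1, 2.16 in the pooled list, 1.99 without mostly soft-masked peaks and 2.00 without promoter summits, and this difference, the share in transposable elements and the count at the 5' end were chosen after seeing the data. Of 63 alternatives, 33 were counted as within the spread between replicates or a counting interval. The counts of 53 and 50 genes are among these 33, though both lie below the exact interval of 71.0 to 89.1% of 80 genes. No paired analysis was possible because the samples form 1 group. The control alignment and the reads were not analysed here, so depth and the placing of repeated reads limit what the lists can show.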
